A study of Mus musculus with 12 samples.

Results

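The interleukin-6 (IL-6) family comprises cytokines that signal through the shared receptor chain gp130, and 10 of its genes were examined in mouse hearts after acute myocardial infarction (AMI). Members were taken by symbol. They were 5 ligand genes, *Il6*, *Il11*, *Lif*, *Osm* and *Clcf1*, and 5 receptor genes, *Il6ra*, *Il6st*, *Lifr*, *Osmr* and *Il11ra1*, among 53801 genes in the count and TPM matrices. RNA was measured in heart samples of adult male C57BL/6N mice. There were 12 samples, 4 in each of 3 groups. Sham hearts came from sham-operated mice, and day 1 AMI and day 7 AMI hearts were taken 1 and 7 days after permanent ligation of the left anterior descending coronary artery. No day after surgery is given in the labels of the sham hearts, so sham and AMI cannot be matched for time after surgery. Each labelled replicate gave 1 library, the labels name the heart but no region of it, and they name no other allele or agent. The paper's methods state that the RNA came from whole hearts. Because the tissue was bulk, fewer cells of a type and less RNA per cell cannot be told apart.

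IL-6 family ligands are small secreted cytokines. IL-6 and IL-11 first bind their own receptor chain, encoded by *Il6ra* and *Il11ra1*, and these complexes then recruit gp130, the product of *Il6st*. Leukemia inhibitory factor (*Lif*) and cardiotrophin-like cytokine factor 1 (*Clcf1*) use gp130 together with the LIF receptor (*Lifr*). Mouse oncostatin M (*Osm*) uses gp130 with the oncostatin M receptor (*Osmr*). All of these complexes activate JAK kinases and the transcription factor STAT3, which induces the feedback inhibitor *Socs3*. In the heart the family is known for acute phase signalling after injury and for effects on cardiomyocyte survival, hypertrophy and fibroblasts.

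The 5 ligand genes were higher than sham on both days, and promoters of 3 of them are shown because these held matches to the inducible motifs searched. Each line gives the 250 bases before the RefSeq transcription start on GRCm38.p6, on the strand of the gene. Capitals mark matches to the AP-1 motif TGANTCA or, in *Il6*, also to a 10-letter NF-kB motif. The *Il6* sequence is chr5:30012864-30013113 on the plus strand, the *Il11* sequence, at the second annotated start of that gene, is chr7:4778142-4778391 on the minus strand, and the *Lif* sequence is chr11:4257318-4257567 on the plus strand.
Il6: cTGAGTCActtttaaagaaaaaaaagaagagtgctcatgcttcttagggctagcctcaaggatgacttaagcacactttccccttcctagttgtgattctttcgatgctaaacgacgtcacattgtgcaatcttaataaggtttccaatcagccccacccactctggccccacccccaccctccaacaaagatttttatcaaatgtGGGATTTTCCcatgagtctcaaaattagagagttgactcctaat
Il11: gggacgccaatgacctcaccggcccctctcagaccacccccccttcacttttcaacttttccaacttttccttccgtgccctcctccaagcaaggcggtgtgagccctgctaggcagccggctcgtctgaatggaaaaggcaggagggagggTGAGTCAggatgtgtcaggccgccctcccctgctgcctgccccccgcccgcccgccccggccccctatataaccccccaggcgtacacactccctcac
Lif: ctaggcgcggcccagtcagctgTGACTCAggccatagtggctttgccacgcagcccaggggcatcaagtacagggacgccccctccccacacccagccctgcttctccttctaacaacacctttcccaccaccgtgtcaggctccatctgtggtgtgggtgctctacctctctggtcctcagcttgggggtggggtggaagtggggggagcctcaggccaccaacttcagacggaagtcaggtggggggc

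In *Il6* the AP-1 match ran from position -249 to -243 and the NF-kB match from -44 to -35, counted from the start. The AP-1 match ran from -98 to -92 at the second *Il11* start and from -228 to -222 in *Lif*. The window at the first *Il11* start held no match to any motif searched. Windows of 300 bases (250 before to 50 after the start) were held for 8 of the 10 members, 11 windows in all, and both strands were searched. *Osm* and *Clcf1* had no entry. AP-1 letters were found in windows of 4 members, the fourth being *Osmr* at bases 4 to 10 after its start, and in 7.81% of all 32851 windows of the reference. The NF-kB letters were found in *Il6* alone among the members and in 1.63% of all windows. The STAT motif TTCNNNGAA was in no member window and in 8.3% of all windows. In *Il6*, which held both kinds, the matches did not overlap. These are matches of letters, not measured binding.

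The genes lie on GRCm38 in the GENCODE M21 annotation as follows. *Il6* (ENSMUSG00000025746) spans chr5:30013114-30019981 and *Il11* (ENSMUSG00000004371) spans chr7:4772373-4782859. *Osm* (ENSMUSG00000058755, chr11:4236420-4241026) ends 16530 bases before *Lif* (ENSMUSG00000034394, chr11:4257557-4272514), so these ligands are neighbours on the plus strand. *Clcf1* (ENSMUSG00000040663) spans chr19:4214238-4223490. Among the receptors, *Osmr* (ENSMUSG00000022146, chr15:6813577-6874969, minus strand) and *Lifr* (ENSMUSG00000054263, chr15:7090614-7197489, plus strand) lie 215644 bases apart. *Il6ra* (ENSMUSG00000027947) is at chr3:89864059-89913196, *Il6st* (ENSMUSG00000021756) at chr13:112464070-112510086 and *Il11ra1* (ENSMUSG00000073889) at chr4:41699989-41769474. A near copy of *Il11ra1* exists: 36.0% of the 75-base stretches of its transcripts are shared with *Il11ra2* or *Gm13305*. These copies held at most 1 count in any library, so the *Il11ra1* counts are uncertain to the extent that shared reads were assigned to it. The exons of *Clcf1* overlap AC109138.7 over 8.17% of their length, and those of *Il6ra* overlap antisense *Gm42809* over 2.80%.

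Library totals ranged from 23204551 to 32166517 counts. In one edgeR quasi-likelihood fit of all 12 libraries, 15306 genes passed the filter on low counts and were tested, including all 10 members. A gene was called when its fold change (FC) was 2 or greater and its Benjamini-Hochberg false discovery rate (the adjusted p below) was under 0.05. *Il6*, *Il11* and *Osm* had at most 3 counts in every sham heart and passed the filter through the AMI hearts, so they had little room to be called lower than sham. *Lif*, with 5 to 21 counts in sham hearts, also passed through the AMI hearts. Levels are TMM-normalized CPM, that is counts scaled to library size, unless TPM (scaled to transcript length as well) is named. Cardiomyocyte markers were abundant in every heart, with the 11 genes summing to 78290 to 93960 CPM in sham, 51250 to 63560 on day 1 and 46610 to 53830 on day 7.

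On day 1 after AMI all 5 ligands and *Osmr* were higher than in sham hearts. Thus 6 of the 10 members were called, all higher, beside 10.8% of all genes tested (7.79% higher and 2.98% lower). Without *Il6*, *Il11* and *Osm*, which entered the test through their high AMI counts, 3 of the other 7 members were called on day 1 (*Lif*, *Clcf1* and *Osmr*) and 2 of 7 on day 7. *Lif*, at 7, 21, 11 and 5 counts in sham, also passed the filter through the AMI hearts. With *Lif* left out as well, *Clcf1* and *Osmr* were called on day 1 and *Clcf1* alone on day 7. The hearts of the groups did not overlap for 8 members, beside 36.7% of all genes. On day 7 the 5 ligands alone were called, all higher than sham, beside 21.2% of all genes (15.3% higher and 5.88% lower), and again 8 members did not overlap, beside 53.0%. Between day 7 and day 1, *Il11*, *Osm* and *Clcf1* were called lower and no member higher, beside 11.2% of all genes (8.55% higher and 2.69% lower). Here 3 members did not overlap between groups, beside 44.5%. The median log2 FC of the 10 members was 1.80, 0.90 and -0.27 in these 3 comparisons, beside -0.01, 0.03 and 0.02 over all genes tested. These medians, the counts of members not overlapping and the counts below include *Il6*, *Il11*, *Osm* and *Lif*. They are thus raised by members that passed the filter through the AMI hearts. For the 5 receptors alone the median log2 FC was 0.058, -0.0049 and -0.063, and 3, 3 and 1 did not overlap. With no FC minimum, at an adjusted p under 0.05, 6 members were higher and 2 lower on day 1, beside 41.8% of all genes (22.0% higher and 19.9% lower). On day 7 the members were 7 higher and 2 lower, beside 59.3% (30.9% higher and 28.4% lower). For day 7 against day 1 they were 0 higher and 3 lower, beside 47.0% (24.2% higher and 22.8% lower). Both comparisons with sham use the same sham hearts, and both AMI groups also enter the third comparison.

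**Figure D1:**
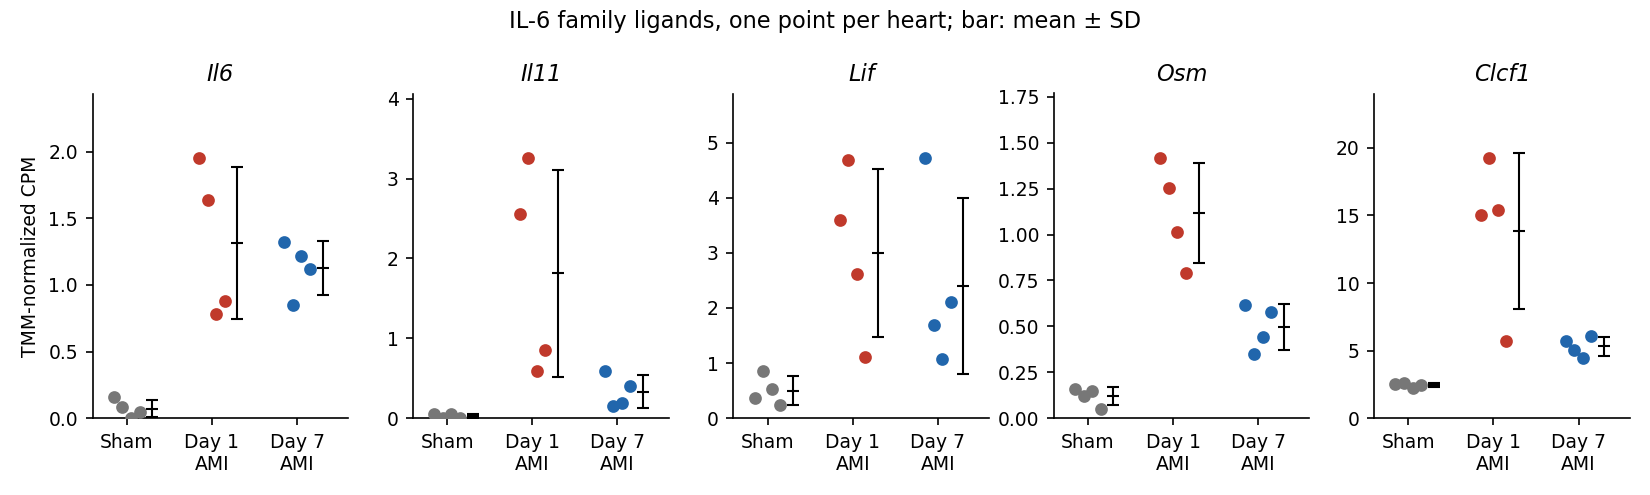
TMM-normalized CPM (vertical axis, linear from 0) of the 5 ligand genes in each heart of the 3 groups, with the mean and SD of 4 hearts beside the points. Every AMI heart lies above every sham heart for each ligand, and *Clcf1* reaches the highest CPM, 19.2 in a day 1 heart.

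*Il6*, which encodes the acute phase cytokine that names the family, was near the floor of detection in sham hearts, with raw counts of 3, 2, 0 and 1 in replicates 1 to 4. The day 1 hearts held 51, 55, 24 and 28 counts, and the day 7 hearts 43, 22, 33 and 33. Every AMI heart was far above every sham heart, while the hearts of day 1 and day 7 overlapped. Relative to library size, the summed count was 18.4 times that of sham on day 1 (95% counting interval 8.25 to 50.8) and 16.2 times on day 7 (7.23 to 44.9). Such intervals cover counting error only. In the edgeR quasi-likelihood fit the adjusted p was 7.66e-05 on day 1 and 2.72e-05 on day 7. Day 7 against day 1 gave a log2 FC of -0.21 with a 95% interval from -0.96 to 0.54 (adjusted p = 0.648).

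*Il11*, a cytokine known for actions on fibroblasts, was all but undetected in sham hearts, with 1, 0, 1 and 0 counts. Day 1 hearts held 67, 109, 18 and 27 counts, so replicates 1 and 2 were well above replicates 3 and 4. On day 7 the counts were 19, 4, 5 and 12, and the hearts of the day 1 and day 7 groups did not overlap in CPM by a narrow margin (lowest on day 1 0.589, highest on day 7 0.586). The summed count was 77.1 times sham on day 1 (interval 21.1 to 640.3) and 14.8 times on day 7 (3.84 to 126.5), with adjusted p of 0.000189 and 0.0109 in the fit. From day 1 to day 7 it fell by 2.39 on the log2 scale (SE 0.56, adjusted p = 0.00322).

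*Lif*, best known for keeping mouse stem cells undifferentiated, was low in sham, at 0.365, 0.863, 0.534 and 0.239 CPM. It reached 3.59, 4.69, 2.62 and 1.10 CPM on day 1, and 4.72, 1.70, 1.07 and 2.11 CPM on day 7. No AMI heart overlapped sham, and the hearts spread widely within each AMI group. The log2 FC was 2.54 on day 1 (SE 0.55, adjusted p = 0.00235) and 2.23 on day 7 (SE 0.56, adjusted p = 0.00308). For day 7 against day 1 it was -0.31 (95% interval -1.29 to 0.67, adjusted p = 0.603).

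*Osm*, a cytokine made mainly by leukocytes, had 3, 3, 3 and 1 counts in sham hearts, 37, 42, 31 and 25 on day 1 and 20, 9, 12 and 17 on day 7. All 3 groups were apart from each other in CPM, with day 7 in between. The summed count was 9.42 times sham on day 1 (interval 4.97 to 20.1, adjusted p in the fit 4.99e-05) and 4.30 times on day 7 (2.18 to 9.43, adjusted p 0.000664). From day 1 to day 7 *Osm* fell by 1.15 on the log2 scale (SE 0.30, adjusted p = 0.00562).

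*Clcf1*, a neurotrophic member of the family, had the most counts of the 5 ligands examined. Sham hearts were tightly grouped at 2.50, 2.63, 2.23 and 2.49 CPM. Day 1 hearts were at 15.1, 19.2, 15.4 and 5.71 CPM, and day 7 hearts at 5.70, 5.02, 4.46 and 6.09 CPM. Day 1 replicate 4 thus lay among the day 7 hearts, and the other 3 day 1 hearts lay above all of them. The log2 FC was 2.49 on day 1 (SE 0.29, adjusted p = 4.22e-05) and 1.11 on day 7 (SE 0.29, adjusted p = 0.00459), and day 7 was 1.38 below day 1 (log2 FC -1.38, SE 0.27, adjusted p = 0.0008). Among the 5 ligands, *Clcf1* also had the highest TPM in every heart of each group. Cardiotrophin 1 (*Ctf1*), a family ligand outside these 5, had a higher mean TPM than *Clcf1* in each group. Its means were 9.295, 8.95 and 6.985 TPM in sham, day 1 and day 7, against 1.17, 8.32 and 4.165 for *Clcf1*.

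TPM values, which are per transcript length, allow the 5 ligands examined to be set side by side. Their sum was 1.71 ± 0.30 TPM in sham, 14.7 ± 5.31 on day 1 and 8.61 ± 2.07 on day 7 (SD, n = 4 each). *Clcf1* took 70.3% ± 13.5 of the ligand TPM in sham, 56.3% ± 5.67 on day 1 and 48.7% ± 5.06 on day 7, while *Il6* took 4.73% ± 3.32, 17.3% ± 8.08 and 25.9% ± 4.71. After *Clcf1* the order was *Il6* and then *Lif* in every day 7 heart, with *Il11* and *Osm* below them in mixed order. On day 1 the ranks of *Il6*, *Lif* and *Il11* crossed between hearts. In sham, *Lif* was next after *Clcf1* in every heart and *Il6*, *Il11* and *Osm* were at or below 0.13 TPM. On log2(TPM + 1), which shrinks the changes of genes this low, the log2 FC fell short of 2-fold for *Lif* (0.99) and *Osm* (0.71) on day 1. On day 7 it did so for *Il11* (0.48), *Lif* (0.82) and *Osm* (0.39), and for day 7 against day 1 for *Il11* (-0.67), *Osm* (-0.33) and *Clcf1* (-0.80). The *Lif* TPM is less certain than its counts: sham replicate 4 was listed at 0.89 TPM on 5 counts, and replicate 2 at 0.28 TPM on 21 counts. In AMI hearts the *Lif* TPM per CPM also varied, by up to 2.61 times between day 1 hearts and 2.05 times between day 7 hearts. The ranks of *Lif* in TPM carry this uncertainty.

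**Figure D2:**
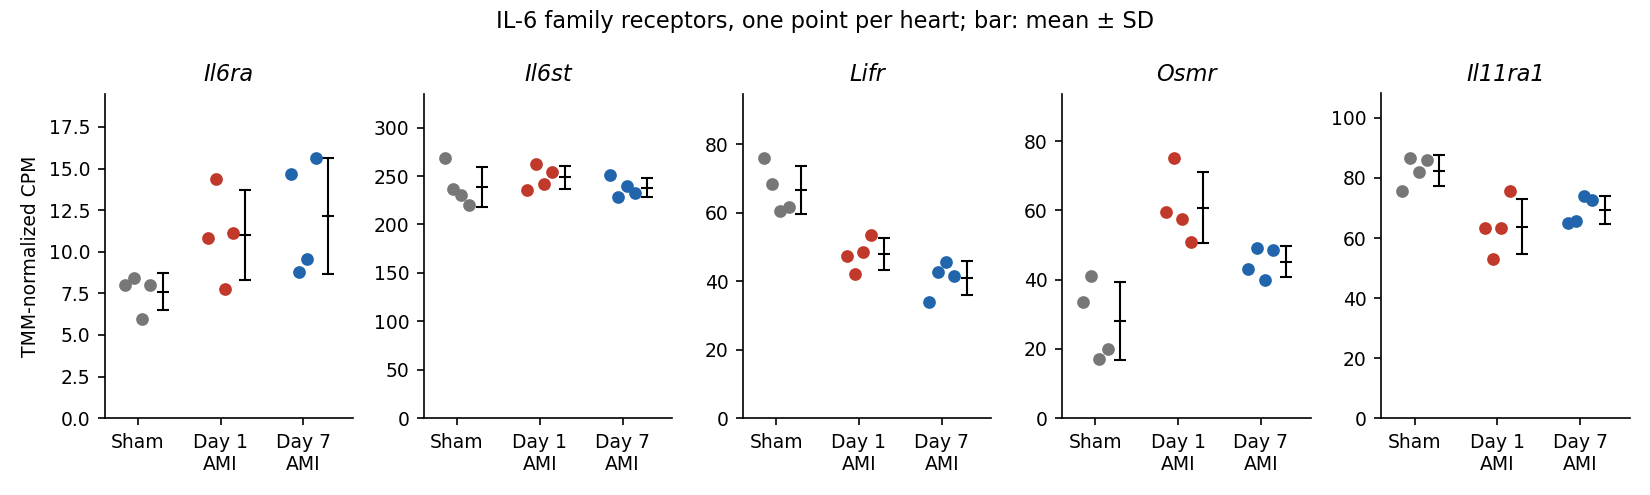
TMM-normalized CPM (vertical axis, linear from 0) of the 5 receptor genes in each heart, by group, with the mean and SD of 4 hearts beside the points. *Osmr* is higher and *Lifr* lower in every day 1 heart than in any sham heart on this scale (the *Lifr* direction turned in TPM), and *Il6st* stays between 220.0 and 268.2 CPM in all 12 hearts.

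*Osmr*, the chain that pairs with gp130 for oncostatin M, was the only receptor called in the edgeR fit, higher on day 1. It was at 33.6, 41.0, 17.2 and 20.0 CPM in sham, 59.6, 75.04, 57.6 and 51.0 on day 1 and 43.0, 49.3, 39.9 and 48.5 on day 7. All day 1 hearts lay above all sham and all day 7 hearts, while sham replicate 2 overlapped the lowest day 7 heart. The log2 FC was 1.12 on day 1 (SE 0.22, adjusted p = 0.00124). It was 0.69 on day 7 (SE 0.22, adjusted p = 0.0143), under the FC minimum, and -0.43 for day 7 against day 1 (adjusted p = 0.116). The day 1 call rests on sham replicates 3 and 4: without replicate 3 the log2 FC was 0.95 and without replicate 4 it was 0.99, both just under 2-fold. On library totals alone and on either TPM scale *Osmr* was past both thresholds on day 7 as well (log2 FC 1.09 to 1.33). Sham replicates 1 and 2, with the higher *Osmr*, also had the higher sum of 12 neutrophil markers, 36.8 and 66.0 CPM against 5.68 and 4.59 CPM in replicates 3 and 4, and the part of those cells in the result was not tested.

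*Lifr*, the partner chain for LIF and CLCF1, was lower than sham in CPM, by less than 2-fold. In TPM it was not lower on day 1 and overlapped sham on day 7. Sham hearts were at 75.8, 68.3, 60.5 and 61.5 CPM, day 1 hearts at 47.4, 42.2, 48.5 and 53.5, and day 7 hearts at 33.9, 42.8, 45.6 and 41.5. Both AMI groups lay wholly below sham. The log2 FC on day 1 was -0.47 (SE 0.11, adjusted p = 0.00293). It was 0.24 on log2(TPM + 1) and 0.26 on log2(TPM + 0.1), so the day 1 direction differed between counts and TPM. The direction turned in these 2 of 8 other settings. Day 1 replicate 2 had the lowest *Lifr* CPM of its group (42.2) but the highest TPM (14.6), which also enters the *Osmr* over *Lifr* ratio below. On day 7 the log2 FC was -0.70 (SE 0.11, adjusted p = 6.44e-05). Over 8 other settings the day 7 log2 FC ran from -0.72 to -0.14, and its adjusted p was not under 0.05 in all of them. In TPM the day 7 hearts were at 7.97 to 8.92 and the sham hearts at 8.2 to 10.31. *Lifr* and *Il11ra1* were the members lower than sham on each day with no FC minimum.

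*Il11ra1*, the receptor chain specific to IL-11, was at 75.6, 86.5, 82.0 and 85.8 CPM in sham, 63.3, 53.1, 63.4 and 75.5 on day 1 and 65.0, 65.6, 74.2 and 72.8 on day 7. Sham was above both AMI groups, narrowly for the highest day 1 heart. The log2 FC was -0.37 on day 1 (SE 0.10, adjusted p = 0.00803), and -0.02 on log2(TPM + 1). On day 7 it was -0.25 (SE 0.10, adjusted p = 0.0399), but 0.15 on library totals alone and 0.44 on both TPM scales, so the day 7 direction turned with the scaling. On day 1 *Il11* was higher than sham and its receptor chain was lower in CPM by less than 2-fold.

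*Il6st*, which encodes gp130, was the most abundant member in counts and was nearly flat. It was at 268.2, 237.0, 230.3 and 220.0 CPM in sham, 235.6, 262.8, 242.0 and 254.3 on day 1 and 251.0, 228.8, 239.4 and 233.0 on day 7. The groups overlapped throughout. The 95% interval of the log2 FC ran from -0.11 to 0.23 on day 1 and from -0.17 to 0.16 on day 7. On day 7 the log2 FC was 0.00 to 2 decimals in the fit (adjusted p = 0.962) and 0.40 to 0.49 on library totals alone or TPM. The median of all genes moved up by a like amount there, to between 0.43 and 0.57.

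*Il6ra*, the IL-6 binding chain, was at 8.03, 8.42, 5.97 and 7.99 CPM in sham, 10.8, 14.4, 7.75 and 11.1 on day 1 and 14.7, 8.81, 9.56 and 15.6 on day 7. The day 7 hearts were all above sham, and day 1 replicate 3 fell within the sham range. The log2 FC was 0.54 on day 1 (SE 0.21, adjusted p = 0.0581) and 0.68 on day 7 (SE 0.21, adjusted p = 0.0136, under the FC minimum). On library totals alone and on log2(TPM + 0.1) it passed 2-fold on day 7 (log2 FC 1.09 and 1.14).

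**Figure D3:**
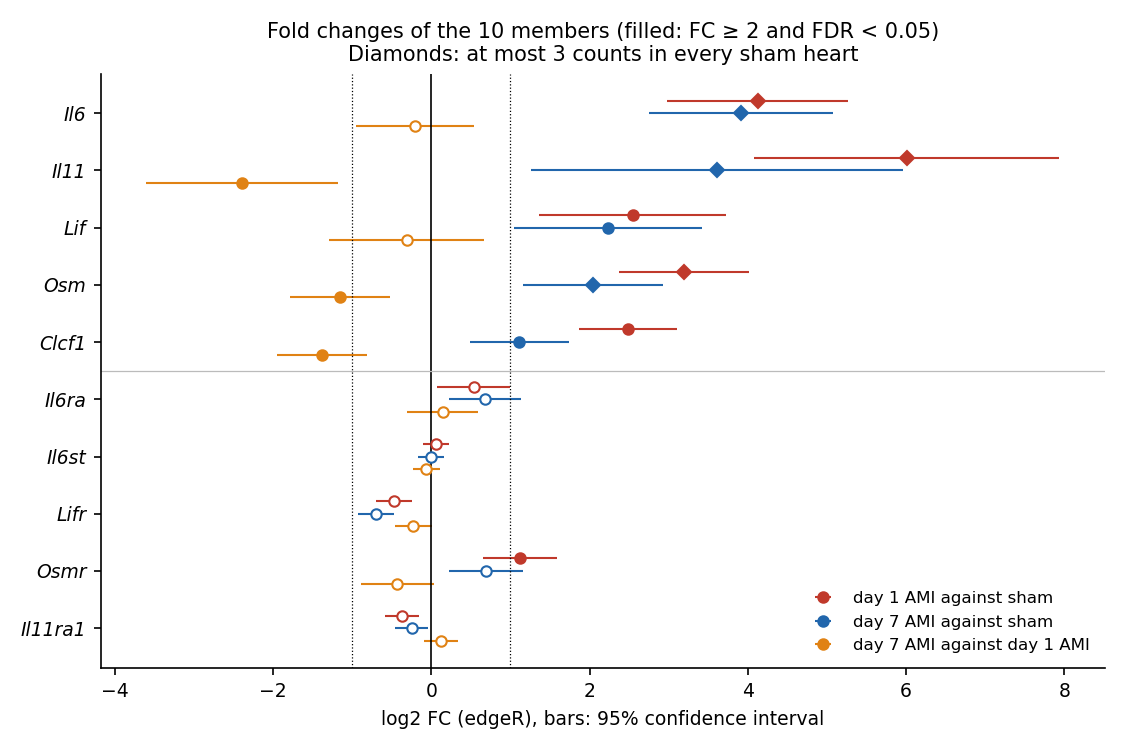
log2 FC from edgeR (horizontal axis) of the 10 members in the 3 comparisons, with bars for the 95% confidence interval, filled symbols for called genes, dotted lines at 2-fold and diamonds where every sham heart had at most 3 counts, so that the fitted size depends on the prior count. The 5 ligands (upper rows) lie right of 2-fold against sham on both days, and the receptors lie within about 2-fold of 0 except *Osmr* on day 1.

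Receptor chains were next compared within each heart in TPM. The order was *Il11ra1*, *Il6st*, then *Lifr* and *Osmr*, with *Il6ra* last, in sham and AMI hearts alike, apart from day 1 replicate 2, where *Il6st* (65.3 TPM) exceeded *Il11ra1* (58.7 TPM). *Osmr* and *Lifr* changed places. In sham hearts *Osmr* TPM was 0.794, 1.03, 0.435 and 0.601 times *Lifr* TPM, close to equal in replicate 2 and below it in the others. On day 1 the ratio was 1.76, 1.55, 1.72 and 1.30, and on day 7 it was 1.89, 2.22, 1.61 and 2.02, above 1 in all 8 AMI hearts. The mean log2 ratio was -0.56 ± 0.53 in sham, 0.65 ± 0.20 on day 1 and 0.94 ± 0.19 on day 7 (SD, n = 4), and the exact two-sided permutation p against sham was 0.0286 on each day. That is the smallest p that 4 hearts against 4 allow, and adjusted over the 9 receptor ratio tests it was 0.0857, so none of these ratios passed 0.05.

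*Il6ra* over *Il6st* was higher by 0.50 on the log2 scale on day 1 (exact permutation p = 0.0571) and by 0.70 on day 7 (exact permutation p = 0.0286, adjusted 0.0857). *Il11ra1* over *Il6st* differed from sham by -0.39 on day 1 (exact permutation p = 0.0571) and by -0.06 on day 7 (exact permutation p = 0.629). In every group the gp130 transcript was well above the IL-6 binding chain, whose TPM was 0.0269 to 0.0663 times that of *Il6st* across hearts.

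**Figure D4:**
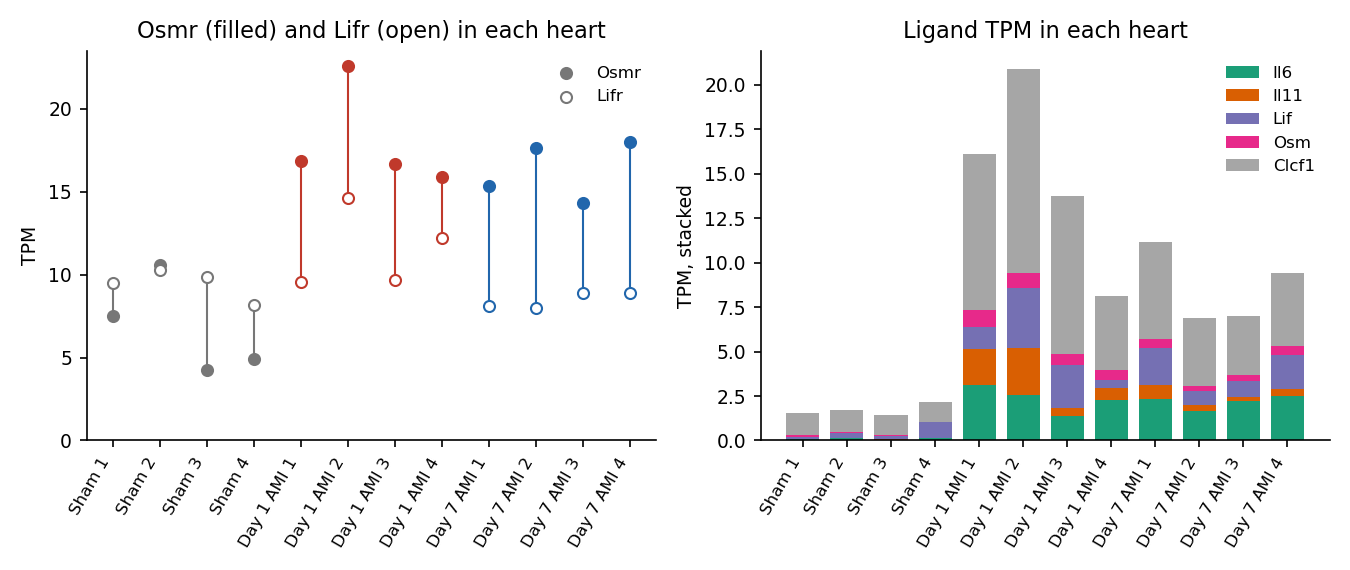
Left, TPM of *Osmr* (filled) and *Lifr* (open) in each of the 12 hearts, joined by a line, in grey for sham, red for day 1 and blue for day 7. Right, TPM of the 5 ligands stacked for each heart. *Osmr* lies above *Lifr* in all 8 AMI hearts, and *Clcf1* is the tallest block in every bar.

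Other ligands and receptors of the family were read from the same fit. Of 11 listed genes, 6 were tested, and 2 were called higher on day 1, 3 higher on day 7, and 1 higher and 1 lower on day 7 against day 1, beside 10.8%, 21.2% and 11.2% of all genes called. *Cntf*, ciliary neurotrophic factor, was called higher on day 1 (log2 FC 1.07, adjusted p = 0.0196) and lower on day 7 than on day 1 (log2 FC -1.47, adjusted p = 0.00255). *Ebi3*, a subunit of IL-27 and IL-35, was called higher on day 7 against sham (2.17, adjusted p = 2.32e-05) and against day 1 (1.20, adjusted p = 0.00204). *Il27ra*, the IL-27 receptor chain, was called on day 7 (1.17, adjusted p = 0.000253). Cardiotrophin 1 (*Ctf1*) was lower than sham on day 7 by less than 2-fold (log2 FC -0.86, adjusted p = 0.000538). *Ctf2*, *Il27*, *Il31*, *Il31ra* and *Il11ra2* did not pass the filter.

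Among 19 listed genes of JAK-STAT signalling and its brakes, all tested, 2 were called higher on day 1, 2 higher on day 7 and 1 lower on day 7 against day 1, shares near the 10.8%, 21.2% and 11.2% of all genes or below them. *Socs3*, the feedback inhibitor that binds gp130, was at 9.23, 25.6, 5.19 and 2.87 CPM in sham, 40.5, 53.4, 34.97 and 29.3 on day 1 and 17.6, 9.93, 10.9 and 14.2 on day 7. All day 1 hearts were above all others, and day 7 overlapped sham. *Socs3* rose by 1.87 (log2 FC, SE 0.46, adjusted p = 0.00547) on day 1 and fell by 1.58 from day 1 to day 7 (adjusted p = 0.0106), with 0.28 for day 7 against sham (adjusted p = 0.618). *Socs1*, a brake on interferon signalling, was called higher on both days (1.05, adjusted p = 0.0421, and 1.72, adjusted p = 0.00137). *Stat3* itself was at 125.3 to 234.3 CPM in sham, 275.3 to 306.9 on day 1 and 168.0 to 197.0 on day 7, with a log2 FC of 0.71 on day 1 (adjusted p = 0.00202) and 0.01 on day 7 (adjusted p = 0.942).

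Genes known to be induced through gp130 and STAT3 followed mainly the day 1 time point. Of 29 listed genes, 25 were tested. On day 1, 14 were called higher and 0 lower, beside 7.79% and 2.98% of all genes. On day 7, 5 were higher and 2 lower than sham, beside 15.3% and 5.88%, so the day 7 count was near the background. Against day 1, 0 were higher and 11 lower on day 7, beside 8.55% and 2.69%. Their median log2 FC was 1.48, 0.28 and -0.72, beside -0.01, 0.03 and 0.02 over all genes. Many of these genes are known to answer other inflammatory cytokines as well.

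*Reg3b* led the list on day 1. It encodes a secreted lectin known in the heart as a macrophage attractant, and it had 1 count in all sham hearts together, 11, 15, 19 and 33 counts on day 1 and 0 counts in every day 7 heart. *Timp1*, a metalloproteinase inhibitor, rose by 5.09 on day 1 (adjusted p = 6.43e-06) and was still 3.95 above sham on day 7 (adjusted p = 3.02e-06). *Lcn2*, a neutrophil granule and acute phase protein, rose by 3.89 on day 1 (adjusted p = 4.43e-05) and on day 7 stood 1.53 below sham (log2 FC -1.53, adjusted p = 0.0144, hearts overlapping). *Lrg1*, another acute phase protein, was at 44.9 to 87.8 CPM in sham, 160.9 to 275.7 on day 1 and 17.9 to 19.9 on day 7. It thus lay above sham on day 1 (log2 FC 1.64, adjusted p = 3.19e-05) and below it on day 7 (-1.78, adjusted p = 2.38e-06). For day 7 against day 1 the log2 FC was -5.42 for *Lcn2* and -3.42 for *Lrg1* (adjusted p = 2.19e-06 and 3.12e-08). *Saa3* (3.95, SE 1.24, adjusted p = 0.0133) and *Hp* (1.67, SE 0.60, adjusted p = 0.0262) had, with *Timp1*, the largest log2 FC on day 7, both with hearts overlapping sham.

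**Figure D5:**
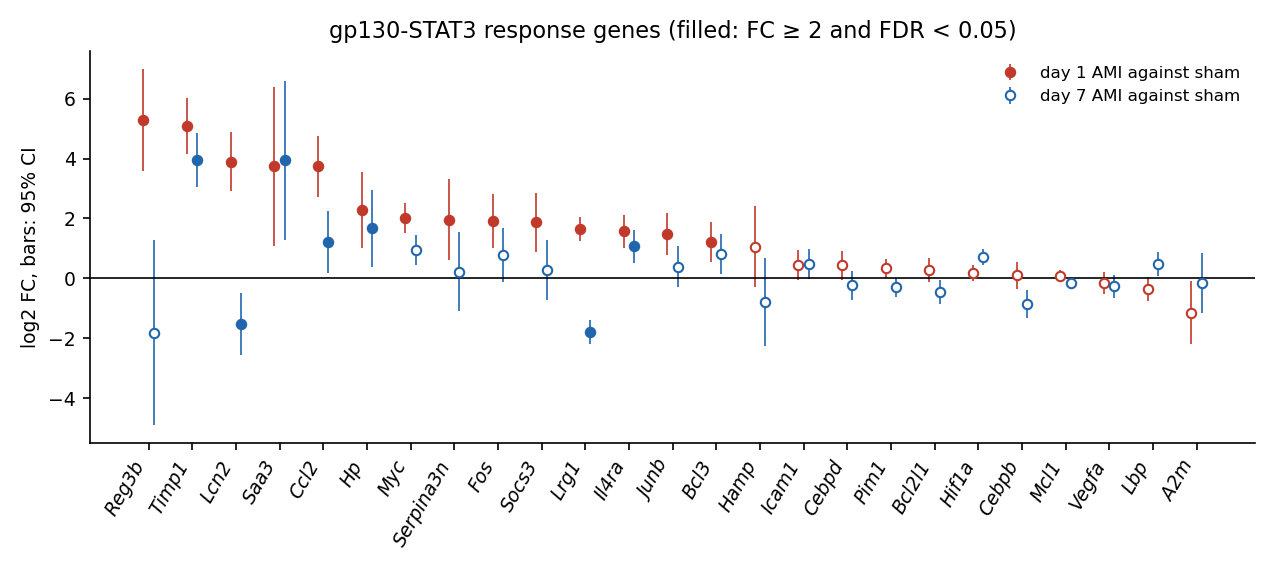
log2 FC (vertical axis, bars for 95% confidence intervals) of the 25 tested gp130-STAT3 response genes on day 1 (red) and day 7 (blue) against sham, ordered by day 1, with filled symbols for called genes. The 14 genes called on day 1 are at the left, and *Lcn2* and *Lrg1* lie below sham on day 7. The *Reg3b* values rest on 1 sham count and 0 day 7 counts.

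Marker genes of several cell types also changed between groups, not always in the direction of the ligands. Over all genes tested, 7.79% were called higher on day 1 and 15.3% on day 7 against sham, and 2.69% lower on day 7 than on day 1. The 8 leukocyte markers, all called higher on both days, summed to 53.2 to 86.0 CPM in sham, 186.2 to 282.6 on day 1 and 193.9 to 331.0 on day 7. The 12 neutrophil markers summed to 4.59 to 66.0, 53.9 to 193.8 and 11.6 to 46.2 CPM, with 5 of 11 tested called higher on day 1 and 8 of 11 lower on day 7 than on day 1. The 14 monocyte and macrophage markers summed to 236.3 to 377.3, 427.8 to 629.3 and 547.0 to 874.4 CPM, with 6 called higher on day 1 and 10 on day 7. The 9 fibroblast markers summed to 1128 to 1374, 1789 to 2413 and 8267 to 16530 CPM, with 4 called higher on day 1 and 6 on day 7. Endothelial markers summed to 940.4 to 1093, 825.1 to 881.2 and 1280 to 1424 CPM, so they were below sham on day 1 and above it on day 7. None of these markers was at 0 in any group, and the part of these cells in the ligand and receptor results was not tested.

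The genes most like each member were found by the root mean square difference of centred log2 CPM over the 12 hearts, among 13434 genes with a mean of at least 1 CPM. For *Il6* they were *Itgax*, *Ccr2* and *Lgals3* (difference 0.41 for each). *Osm* was closest to *Pdpn* (0.20), then *Ubash3b* and *AI506816*. *Clcf1* was closest to *Myc* (0.23), then *Rin1* and *Tnfrsf12a*. *Lif* was near *Mthfd2* (0.39) and *Tubb2b* (0.42). *Il11* had no near match, the closest being *Slc16a3* at 0.63, then *Plaur* and *Hmox1*.

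Among the receptors, *Osmr* was closest to *Hsp90aa1* (0.22), then *G6pdx* and *Mapk11*, and *Il6ra* to *Slc52a3* (0.16), then *Tmem37* and *Ripk2*. Flat or slowly moving members had closer matches. *Lifr* was nearest to *Pdk1* (0.073), *AI314180* and *Mtrf1*, *Il11ra1* to *Sh3glb2* (0.072), *Wdsub1* and *Araf*, and *Il6st* to *Hnrnpu* (0.062), *Glyr1* and *Tmem18*. These differences are descriptions over 12 hearts that share the 3 group means, and genes that hold few counts add counting noise to them.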

How the data were processed

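RNA from 12 mouse hearts was sequenced as paired 150-base reads. According to the methods and the submitters' processing notes, base calls came from CASAVA 1.8, reads were trimmed with Cutadapt and aligned with STAR 2.4.0j to Ensembl GRCm38 (mm10), and RSEM gave gene abundance. The authors deposited raw counts per gene and, in a second matrix, TPM rounded to 2 decimals. How the count matrix was counted, its strand setting and its use of multi-mapping reads are not given in the sources used here. The count matrix totals 23204551 to 32166517 per library, so 3 counts, the floor used here, corresponded to 0.0895 to 0.157 CPM.

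Groups were taken from the treatment labels. Counts were normalized by TMM (factors 0.781 to 1.17), filtered with filterByExpr and fitted with edgeR 4.0.16 (R 4.3.3) in one quasi-likelihood model of 3 groups, with Benjamini-Hochberg adjustment over all 15306 genes tested. This composition scaling matters here: on library totals alone the median gene had a log2 FC of 0.26 on day 1 and 0.43 on day 7 against sham. Ratios of summed counts used library size after TMM and exact 95% counting intervals. Receptor ratios were tested with exact permutation tests (scipy 1.17.1). Alternatives were DESeq2 1.42.0, limma 3.58.1 on log2(TPM + 1) and log2(TPM + 0.1), other size factors, other filters, a replicate block and leaving out each heart. The scripts were tested on simulated data. The members and the lists were chosen with earlier results of these data known. Named genes were all 10 members, up to 3 called genes with the largest log2 FC in each direction per pathway list, and the 3 genes most like each member, with *Stat3*, *Ctf1* and per-heart values added after values were seen. Annotation was GENCODE M21 and promoter windows were RefSeq on GRCm38.p6. Protein sequences were not used here, and some genes that the rule would name are not reported here. Replicates are separate hearts by their labels, and no pair of libraries agreed within sampling noise (chi-square per degree of freedom at least 8.84). The p-values set differences between groups against the spread between these hearts. In the edgeR fit the 3 groups shared an estimate of that spread.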

Additional observations from a re-analysis of the deposited data

Results flagged for a closer look

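The AMI effect differed between day 7 and day 1 for 3 ligands by the test of the difference itself in the edgeR fit. For *Il11* the day 7 effect minus the day 1 effect was -2.39 on the log2 scale (adjusted p = 0.00322), lower in all 4 day 7 hearts than in any day 1 heart in CPM, by a margin of 0.586 against 0.589, and with hearts overlapping in TPM (0.82 in day 7 replicate 1 against 0.46 and 0.71 in day 1 replicates 3 and 4). For *Osm* the difference was -1.15 (adjusted p = 0.00562), again lower in 4 of 4 hearts. For *Clcf1* it was -1.38 (adjusted p = 0.0008), with day 1 replicate 4 within the range of the day 7 hearts. On log2(TPM + 1) none of these 3 reached a 2-fold difference, and on log2(TPM + 0.1) *Osm* (-0.79) and *Clcf1* (-0.92) did not. Dixon's test marked no heart in any of the 30 combinations of member and group, where chance alone would mark about 1 in 20. With 4 hearts per group this test has little power. It did not mark *Clcf1* in day 1 replicate 4, at 5.71 CPM against 15.1 to 19.2 in the other day 1 hearts.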

How the results depend on the processing

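The count of called members was within 1.5 times that of the edgeR fit in 58 of 63 refits. On day 7 against sham, where it was 5, it was 3 with limma on log2(TPM + 1), 3 when only the 8 hearts compared were fitted (*Il11* and *Osm* then failed the filter) and 9 (7 higher, 2 lower) with no FC minimum. On day 7 against day 1 the 3 called members became 0 with log2(TPM + 1) and, with log2(TPM + 0.1), 1 (*Il11*). A pseudocount of 1 TPM exceeds most ligand levels in sham. Leaving out each heart gave 5 to 6 members on day 1, 5 in every fit on day 7 and 3 in every fit for day 7 against day 1.

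Directions turned for members near 0. *Lifr* on day 1 became 0.24 and 0.26 on log2(TPM + 1) and log2(TPM + 0.1). On library totals, log2(TPM + 1) and log2(TPM + 0.1) in turn, *Il11ra1* on day 7 became 0.15, 0.44 and 0.44, *Il6st* on day 7 became 0.40, 0.49 and 0.49, and *Il6st* for day 7 against day 1 became 0.063, 0.12 and 0.13. *Il6st* on day 7 also became 0.052 without sham replicate 1, 0.01 without day 7 replicate 2 and 0.0053 without day 7 replicate 4, with a range of -0.046 to 0.052 over all hearts left out. *Il6* for day 7 against day 1 became 0.029 without day 1 replicate 1, in a range of -0.39 to 0.029. The *Osmr* over *Lifr* difference between day 7 and day 1 became -0.19 in CPM. Library totals also moved the split of all called genes to 1764 higher and 217 lower on day 1 and 3633 and 318 on day 7, from 1192 and 456 and from 2346 and 900. On log2(TPM + 1) the splits were 957 and 63 and 2668 and 111. The cause was not tested.

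Same-numbered hearts came from different mice and deviated together with correlations of -0.24 to 0.23, so the numbers share only a label. With the replicate block the member counts were 6, 5 and 3 and changed no call. Depth limits *Il6*, *Il11* and *Osm* in sham, where 3 counts or fewer set wide intervals.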

Other observations

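Day 7 replicate 4 differed from the other day 7 hearts in 2 response genes, a pattern seen after the values were known. *Saa3* was at 31.3 CPM there and at 0.664 to 2.55 in the other 3 day 7 hearts, and *Hp* at 23.7 against 3.76 to 9.31. Among the ligands, *Clcf1* was also highest in that heart (6.09 CPM against 4.46 to 5.70 in the others), while *Il6*, *Il11*, *Lif* and *Osm* were highest in day 7 replicate 1. *Il6ra* was highest in replicates 4 and 1 (15.6 and 14.7 CPM), which also had the highest leukocyte marker sums of that group (331.0 and 306.7 CPM).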
